A study of Sus scrofa with 9 samples.

Results

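Hatched blastocysts (HB) of the pig that carried only a maternal genome were compared with hatched blastocysts that carried a biparental genome. The uniparental embryos were parthenotes (PA HB), produced by activating mature oocytes with ionomycin and then with 6-dimethylaminopurine (DMAP) and culturing them in a porcine embryo medium. Biparental embryos were of 2 kinds. One kind came from chromatin transfer (CT HB), a form of somatic cell nuclear transfer whose reconstructed embryos were activated and cultured in the same way, and the other was derived *in vivo* (IVV HB) and collected from inseminated gilts at 5.5 days post insemination. Of the 9 arrays of the series, 3 held PA HB, 3 held CT HB and 3 held IVV HB, and each held RNA from a pool of 5 embryos. The arrays were assigned by their labels, and 7506 genes were compared on all of them. PA HB and CT HB were labelled with 7 hours after fertilization, an age at which no blastocyst has hatched, and the methods describe a culture of several days. The donor cells of CT HB are not given in the sources used here, and separate collections or activation runs behind the 3 pools of a group are not named, so the p-values cover only how far these pools differed.

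A parthenote is made without sperm, so that both of its chromosome sets come from the oocyte. Imprinted genes are transcribed from the allele of 1 parent, and a gene read only from the paternal allele has no active copy in a parthenote that keeps its maternal imprints. Unmodified parthenotes form blastocysts but do not develop to term in mammals, and they are used to study what the paternal genome contributes. PA HB and CT HB shared activation and culture, whereas IVV HB shared neither, so each gene was set against the mean of both biparental groups and then against each of them. Lack of a paternal genome and the egg's own nucleus in place of a somatic one cannot be told apart within the comparison of PA HB with CT HB. These groups had the same collection label, and their ages beyond that label are not given. In the comparison with IVV HB, activation, culture and the collection label differed too.

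Every value is a log2 ratio of the embryo pool over a shared reference made of porcine oocytes and embryos, averaged over the probes of a gene, so a level of 1 means 2-fold more signal in the embryos than in the reference. A ratio says nothing of the level of 1 gene against another. Arrays correlated at 0.8162 to 0.8979 among PA HB, 0.839 to 0.8869 among CT HB, 0.7853 to 0.869 among IVV HB, and 0.4944 to 0.8179 between PA HB and the other groups. The interquartile range over probes was wider on the PA HB arrays (0.8529 to 1.0291) than on those of CT HB (0.5813 to 0.6627) and IVV HB (0.5491 to 0.6702). A set of 503 probes (2.1%) followed 1 common pattern over the arrays, with a median ratio of 2.387, 3.5768 and 3.5923 in PA HB, 0.4559, 1.222 and 0.1091 in CT HB, and 0.4686, 2.3182 and 1.1408 in IVV HB. These are called common-profile probes below, and 190 genes had at least 1 of them. Markers of the trophectoderm, the outer epithelium of the blastocyst, had array medians that overlapped between groups (8 measured; 0.42 to 0.84 in PA HB, 0.48 to 0.53 in CT HB and 0.43 to 0.84 in IVV HB).

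Many genes separated the parthenotes from both kinds of biparental embryo, and few separated the biparental kinds from each other. A gene was counted as changed at a Benjamini-Hochberg adjusted p of at most 0.05 in limma and a change of at least 2-fold. Against the mean of the biparental groups, 554 of 7506 genes changed (7.38%). Of these, 348 were higher in PA HB (4.64%) and 206 lower (2.74%). Over all genes 3752 lay above 0. In all, the 3 PA HB arrays lay above the 6 others for 9.22% of genes and below them for 8.62% (17.8% on either side). Set against IVV HB alone, PA HB had 326 higher genes (4.34%) and 254 lower ones (3.38%, together 7.73%), and 276 without IVV HB 1 or 342 without PA HB 2. Set against CT HB alone, 363 were higher (4.84%) and 220 lower (2.93%, together 7.77%), or 326 in total without CT HB 3. Both comparisons share the PA HB arrays. CT HB differed from IVV HB in 49 genes (0.653%), with 43 higher (0.573%) and 6 lower (0.0799%), a contrast that is orthogonal to that of PA HB against the mean. That count was 20 without CT HB 3, 24 without IVV HB 1 and 23 without IVV HB 3.

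A gene was called particular to PA HB where it changed in the same direction against the mean, against IVV HB and against CT HB, and where all 3 PA HB arrays lay beyond all 6 others. This held for 312 genes (4.16%), 196 of them higher (2.61%) and 116 lower (1.55%). The higher genes had a median change of 1.60 on the log2 scale (1.03 to 3.31), and the lower ones a median of -1.31 (-2.76 to -1.06). Between CT HB and IVV HB the same genes had median differences of -0.17 and -0.13, and 195 of the 196 and all 116 missed the adjusted p there. A missed threshold does not show that the biparental groups were equal: the 95% interval of their difference lay within 2-fold for 97 of the 196 and 82 of the 116. The count of particular genes depended on single arrays. It was 528 without PA HB 1, 152 without PA HB 2, 193 without CT HB 3 and 160 without IVV HB 1. After quantile normalization it was 130, of which 58 were higher. Among the 554 changed genes, 62.8% were higher, against 40.4% after quantile normalization, 75.2% after scale normalization and 50.8% without the common-profile probes.

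**Figure D1:**
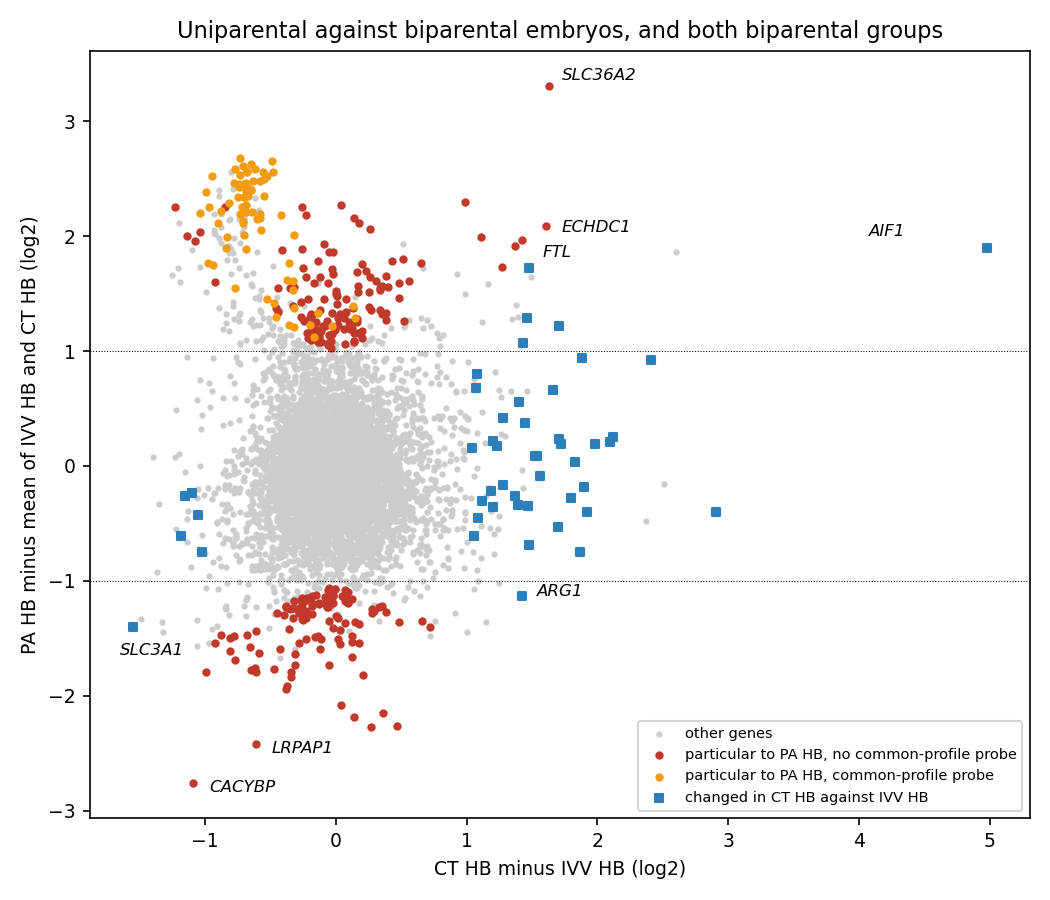
Change of each gene in PA HB against the mean of IVV HB and CT HB (vertical axis, log2) over its change in CT HB against IVV HB (horizontal axis, log2), for 7506 genes; dotted lines mark 2-fold. Genes particular to PA HB lie above and below near 0 of the horizontal axis, those with a common-profile probe form 1 cloud at the top left, and AIF1 lies farthest to the right at 4.98.

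The deepest falls particular to PA HB were led by *CACYBP*, *LRPAP1* and *RHOQ*. *CACYBP*, an adaptor that binds S100 proteins and the ubiquitin ligase SIAH1, stood at -2.95, -2.55 and -1.17 in PA HB, at 0.13, -0.20 and 0.04 in CT HB, and at 1.52, 0.87 and 0.84 in IVV HB. All PA HB pools lay below every other pool, and CT HB lay between PA HB and IVV HB. The fall was 6.76-fold (log2 -2.76 ± 0.33, SE; adjusted p = 0.0014). *RHOQ*, which acts in insulin-stimulated traffic of glucose transporters, had -0.18, -1.04 and -1.30 in PA HB against 1.19, 1.37 and 2.14 in CT HB and 1.61, 0.90 and 1.39 in IVV HB. The biparental groups overlapped each other here, and PA HB lay 4.83-fold below their mean (adjusted p = 0.0014).

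*OXCT1*, the mitochondrial enzyme that lets cells use ketone bodies, had -0.05, -1.96 and -1.31 in PA HB, against 0.99, 0.66 and 1.33 in CT HB and 1.09, 0.85 and 0.92 in IVV HB. It fell 4.23-fold (adjusted p = 0.0028), and its difference between CT HB and IVV HB was 0.04 (95% interval -0.79 to 0.87). *NAMPT*, the rate-limiting enzyme of NAD salvage, fell 3.52-fold (log2 -1.82 ± 0.25, adjusted p = 0.0018), with -1.36 to -1.97 in PA HB, -0.20 to 0.90 in CT HB and -0.19 to 0.20 in IVV HB. *CP*, the ferroxidase ceruloplasmin, fell 3.79-fold. Its PA HB values of -1.35, -1.53 and -2.49 stood apart from -0.44 to 0.31 in CT HB and 0.02 to 0.85 in IVV HB.

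*GOLGA4*, a golgin of the trans-Golgi, fell 4.45-fold and *LRPAP1*, a chaperone of receptors of the LDL receptor family, 5.35-fold. The pools of IVV HB were far apart for *LRPAP1* (2.21, -0.05 and 2.35), while PA HB had -1.30, -1.47 and -0.89 and CT HB 0.52, 1.23 and 0.92. *CTH*, which makes cysteine from cystathionine, had -1.64, -2.29 and -2.39 in PA HB, against 1.03, -0.28 and 0.42 in CT HB and a wide 1.42, -0.58 and -1.09 in IVV HB (log2 -2.26 ± 0.47, adjusted p = 0.0071). *DIS3L*, a ribonuclease of the cytoplasmic RNA exosome, fell 3.47-fold. Of the 12 largest falls, *CACYBP*, *RHOQ*, *VBP1*, *GOLGA4*, *OXCT1*, *CP*, *HSPA8* and *NAMPT* met every condition whichever array was left out. *LRPAP1* missed 1 of them without PA HB 2, CT HB 2 or CT HB 3, *CTH* without PA HB 2, PA HB 3, CT HB 1, CT HB 3 or IVV HB 1, *ATP5G3* without CT HB 3, and *DIS3L* without PA HB 1 or 2 or any CT HB array, while their changes against the mean remained called (log2 -2.81 to -2.21 for *LRPAP1*, -2.51 to -1.88 for *CTH*, -2.23 to -1.69 for *ATP5G3* and -2.10 to -1.36 for *DIS3L*).

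**Figure D2:**
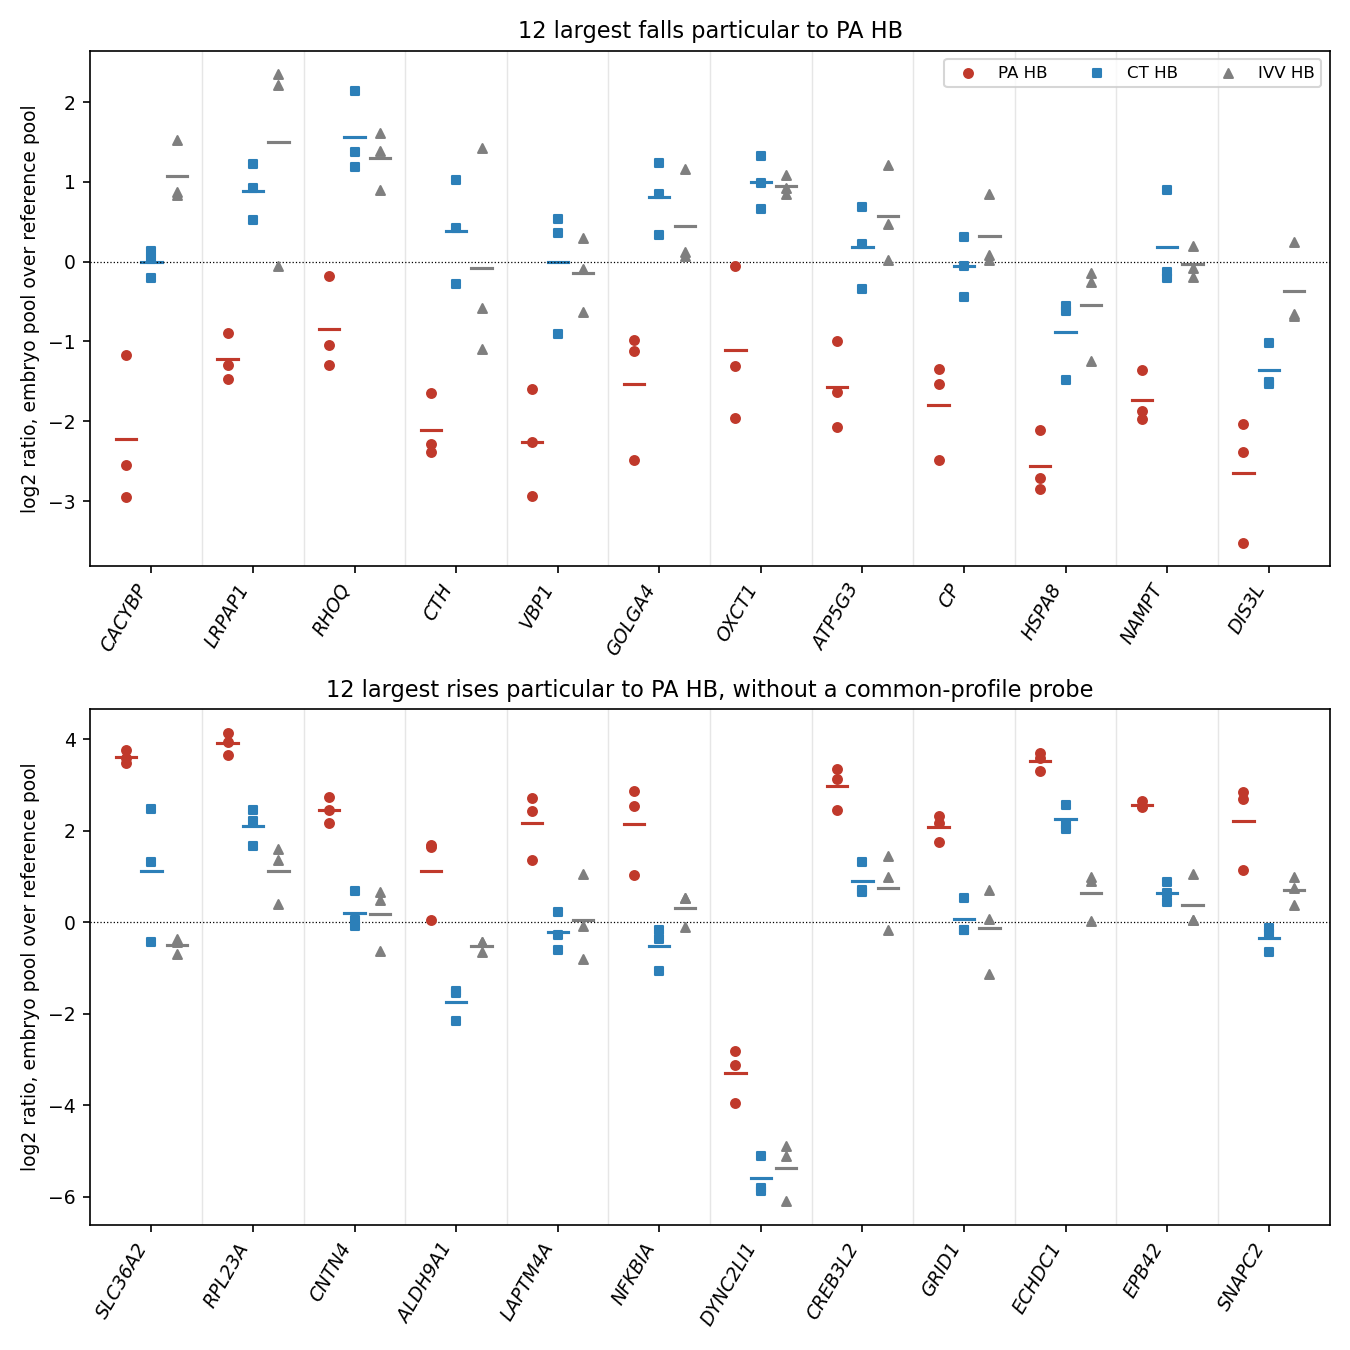
Log2 ratio of embryo pool over reference pool (vertical axis) on each array for the 12 largest falls (top) and the 12 largest rises without a common-profile probe (bottom) among genes particular to PA HB; points are single arrays and bars are group means of 3. In every column the 3 PA HB points lie beyond the 6 others, with *CACYBP* between -2.95 and -1.17 and *SLC36A2* between 3.49 and 3.77.

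Cytosolic chaperones fold new proteins. Of 29 measured, 6 fell (2.74% of all genes fell) and 0 rose, all 6 were particular to PA HB, and the median over the list was -0.42, with 20 members below 0. *HSPA8*, the constitutive HSC70 chaperone, stood at -2.11, -2.85 and -2.71 in PA HB, -0.55, -1.48 and -0.62 in CT HB and -0.14, -0.25 and -1.24 in IVV HB. It was 3.59-fold lower (adjusted p = 0.0028). *VBP1*, a subunit of prefoldin, which hands unfolded actin and tubulin to the chaperonin, had -1.59, -2.94 and -2.26 in PA HB, against 0.54, -0.90 and 0.36 in CT HB and 0.30, -0.63 and -0.09 in IVV HB (4.57-fold, adjusted p = 0.003). *CCT2*, a chaperonin subunit, fell 2.53-fold and *PTGES3*, the HSP90 cochaperone p23, 2.9-fold. *CCT4* and *CACYBP* complete the 6, and *CACYBP* is counted in this list though it is described above as an adaptor. After scale normalization 1 member rose and 4 fell, with 3 of the falls particular to PA HB. The particular falls numbered 4 without CT HB 3 and 5 without PA HB 2 or CT HB 1, while 6 falls against the mean were called whichever array was left out. The proteasome, which degrades tagged proteins, had a median of -0.39 over 31 subunits, while *PSMD14* and *PSMD12* fell and *PSMD11*, with only a common-profile probe, rose. Without PA HB 3 the list had 0 falls in limma.

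The respiratory chain passes electrons to oxygen. Of 30 measured members of complexes I and II, which feed electrons from NADH and succinate into the chain, 28 lay below 0 and the median was -0.65. Falls were called for 6 (*NDUFA9*, *NDUFS4*, *NDUFV2*, *NDUFA2*, *SDHB* and *NDUFS1*, log2 -1.59 to -1.06) and rises for 0. Of all genes, 2.74% fell. By array the list medians were -0.34, -0.83 and -0.50 in PA HB, 0.17, -0.37 and 0.15 in CT HB, and 0.51, 0.14 and 0.15 in IVV HB, so that CT HB 2 lay within the range of PA HB. Against IVV HB alone 11 members fell (median -0.89), and against CT HB alone 4 (median -0.65). Without PA HB 2, 3 members fell against the mean (median -0.54).

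*NDUFA9*, a subunit of complex I that helps to hold its matrix and membrane arms together, had -0.87, -1.34 and -1.28 in PA HB, against 0.56, -0.01 and 0.54 in CT HB and 0.90, 0.21 and 0.35 in IVV HB. It fell 3.01-fold (log2 -1.59 ± 0.20, adjusted p = 0.0014), and its 2 probes gave -0.94 and -2.23. *NDUFS4*, an accessory subunit of the same complex, had -0.10, -0.79 and -0.36 in PA HB, against 0.57 to 0.81 in CT HB and 0.58 to 0.96 in IVV HB (2.2-fold, adjusted p = 0.0026; log2 -0.95, under 2-fold, without PA HB 2). *SDHB*, the iron-sulfur subunit of succinate dehydrogenase, fell 2.08-fold, with -0.59, -1.46 and -1.54 in PA HB, -0.23, -0.53 and 0.27 in CT HB and -0.18, -0.10 and -0.05 in IVV HB.

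ATP synthase, the enzyme that makes ATP from the proton gradient, had 3 falls among 12 measured subunits (2.74% of all genes fell). All 3 were particular to PA HB with every array in, but 1 without PA HB 2, PA HB 3 or CT HB 1 and 0 without CT HB 3 (limma), while 2 or 3 falls against the mean were called whichever array was left out. *ATP5G3*, which encodes a form of the membrane ring subunit c, stood at -1.0, -2.07 and -1.63 in PA HB, at 0.22, -0.34 and 0.69 in CT HB, and at 1.21, 0.47 and 0.02 in IVV HB (3.84-fold, adjusted p = 0.0029). *ATP5B* and *ATP5A1*, the catalytic head subunits beta and alpha, fell 2.39-fold and 2.43-fold. *ATP5E*, the small epsilon subunit, missed 2-fold (log2 0.98), and its 2 probes gave -0.31 and 2.27, with 1 of them a common-profile probe. Complexes III and IV were sparsely measured (7 genes, median -0.47), and the only call, a fall of *COX6C* (log2 -1.01), was lost without PA HB 1, CT HB 1, CT HB 3 or IVV HB 1 (log2 -1.14 to -0.89).

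The remaining mitochondrial lists also had medians below 0. Of all genes, 2.74% fell and 4.64% rose. Among 49 mitochondrial ribosomal proteins, 5 fell, 0 rose and 38 lay below 0 (median -0.42). *MRPL51* had -1.21, -2.54 and -1.13 in PA HB against 0.45, -0.37 and -0.34 in CT HB and 0.98, 0.32 and -0.16 in IVV HB, a fall of 3.41-fold. Without PA HB 2 the list had 3 falls, and after scale normalization 2 falls and 1 rise. In the tricarboxylic acid cycle, *IDH3A* and *SUCLA2* fell (2 of 12, median -0.26). The call of *SUCLA2* was lost without PA HB 2 or PA HB 3 (log2 -1.89 to -1.15 over the arrays left out), and both calls were lost after scale normalization. Mitochondrial import and folding had a median of -0.67 over 15 genes, with 1 fall and 2 rises, or 1 rise without PA HB 2 or PA HB 3. *HSPA9*, the matrix HSP70, fell 2.24-fold, while *TIMM8A*, a chaperone of the intermembrane space, rose 2.25-fold and *TOMM7*, a small subunit of the outer membrane translocase, 3.96-fold. The only probe of *TOMM7* was a common-profile probe, with 1.37, 2.83 and 2.70 in PA HB, -0.08, 0.30 and -0.52 in CT HB and 0.22, 1.22 and 0.73 in IVV HB. *ACADM*, the medium-chain acyl-CoA dehydrogenase of fatty acid oxidation, was the only one of 17 genes of that pathway to pass (2.79-fold lower). Glycolysis was near balance, with a median of -0.02 over 11 genes and 1 fall, *LDHB*, a lactate dehydrogenase subunit whose 2 probes gave -0.46 and -2.15.

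Cytosolic ribosomal proteins were the list with the most falls. Of 44 measured, 11 fell (log2 -1.42 to -1.01) beside 2.74% of all genes, 35 lay below 0, and 6 of the falls were particular to PA HB. That last count was 11 without PA HB 1, 3 without PA HB 2 or IVV HB 1, 2 without CT HB 3 and 2 after scale normalization, which left 7 falls. The median was -0.57, with -0.51 against IVV HB and -0.76 against CT HB. *RPL10A* had -0.79, -1.16 and -0.99 in PA HB, against 0.44, 0.18 and 0.80 in CT HB and 0.15, 0.10 and 0.04 in IVV HB, 2.4-fold lower (log2 -1.27 ± 0.16, adjusted p = 0.0015). *RPL35A* fell 2.42-fold, and its groups were as clearly apart (-0.92 to -1.35 in PA HB, -0.11 to 0.52 in CT HB and -0.13 to 0.08 in IVV HB). *RPL14*, close to 2-fold (log2 -1.03), lost its call without PA HB 3, CT HB 3 or IVV HB 3 (log2 -1.11 to -0.95). A single member went the other way: *RPL23A* stood at 3.66, 4.14 and 3.95 in PA HB, 1.67, 2.46 and 2.21 in CT HB and 0.40, 1.61 and 1.37 in IVV HB, a rise of 4.91-fold that missed 2-fold after quantile normalization (log2 0.94). Ribosomal protein transcripts have many near-identical pseudogenes, and how far probes tell them apart was not tested.

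Among 34 translation factors 6 fell and 0 rose (median -0.24). Of all genes, 2.74% fell and 4.64% rose, shares that stand beside the other lists of this paragraph too. *EIF2S1*, the alpha subunit of eIF2 that is phosphorylated in the integrated stress response, had -1.68, -2.27 and -1.56 in PA HB, against 0.06, -0.61 and -0.11 in CT HB and 0.44, -0.02 and -0.07 in IVV HB. PA HB lay 3.45-fold lower (log2 -1.79 ± 0.21, adjusted p = 0.0014) and below every other pool, while CT HB and IVV HB overlapped. *EIF4A3*, the helicase of the exon junction complex, fell 2.7-fold, and the eIF3 subunits *EIF3A* and *EIF3I* both 2.91-fold. *EIF3A* was not called against CT HB alone (log2 -1.06). Of 17 tRNA synthetases, *NARS* rose and *GARS* fell, and the call of *GARS* was lost when PA HB 2, PA HB 3, CT HB 2, CT HB 3 or IVV HB 1 was left out (log2 -1.55 to -0.76). *RAN*, the GTPase that drives nuclear import and export, fell 2.8-fold and *NUP50*, a nucleoporin of the nuclear basket, 2.39-fold, the only calls among 30 genes of nuclear transport. Both were particular to PA HB with every array in, 1 was without CT HB 1 or CT HB 3, and neither was without PA HB 2 or after quantile or scale normalization. Splicing factors had 3 falls and 1 rise among 41 (median -0.19), and 1 fall and 1 rise without PA HB 2. *SF3B1*, a core subunit of the U2 snRNP, fell 2.29-fold, with log2 -0.83 and no call without PA HB 2.

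**Figure D3:**
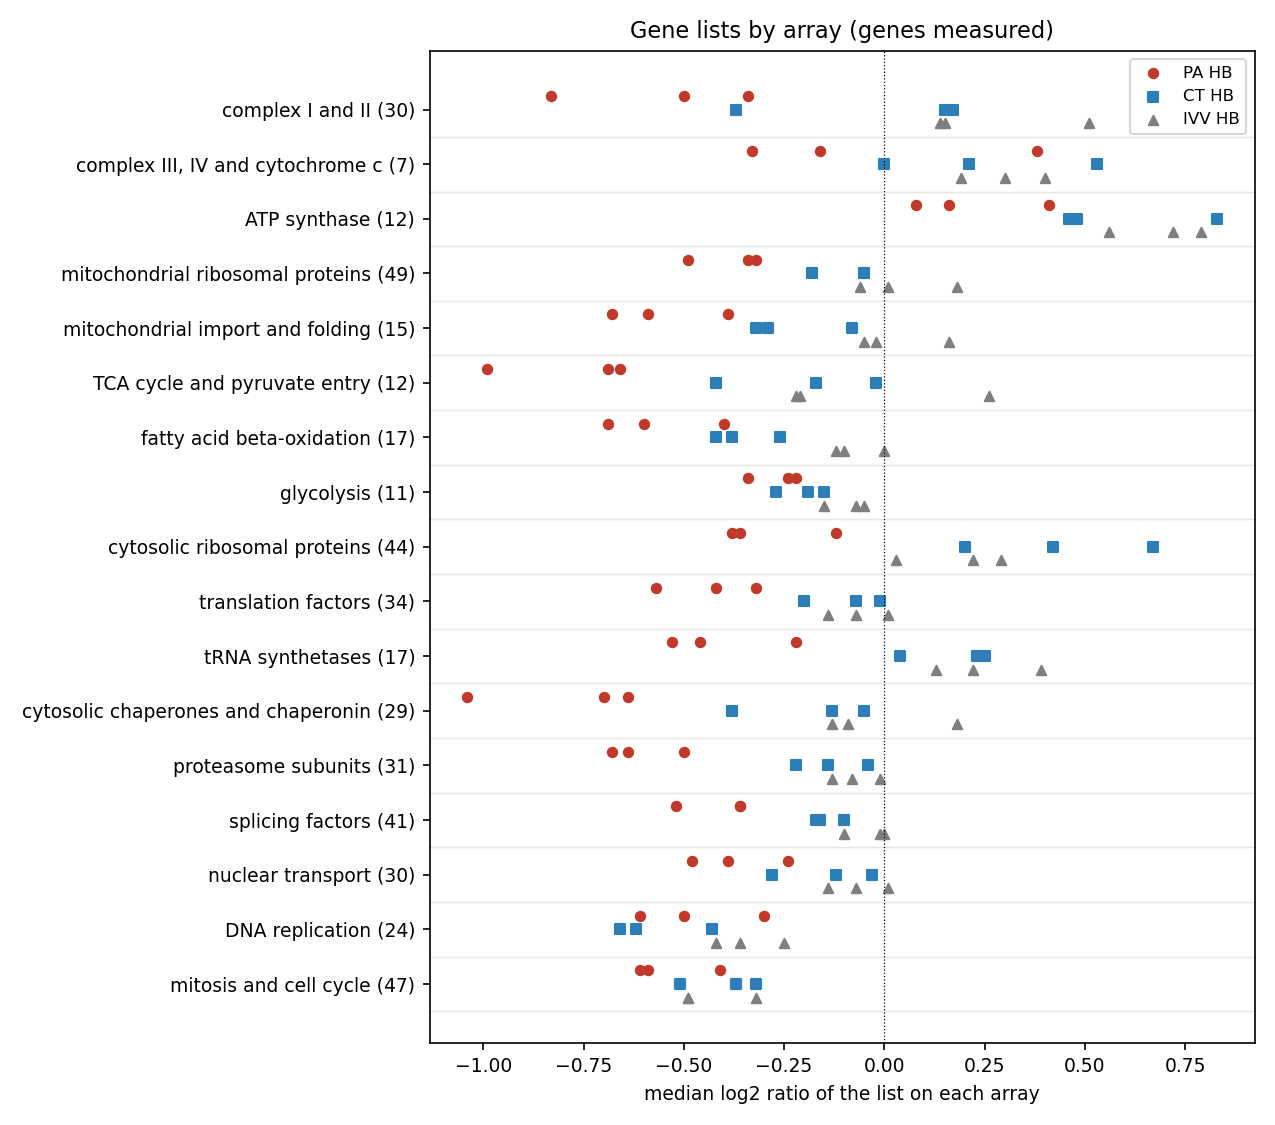
Median log2 ratio of each gene list (horizontal axis) on each array, with the number of measured genes in parentheses; each symbol is 1 array. PA HB arrays lie to the left of all 6 others for cytosolic ribosomal proteins (-0.12 to -0.38), chaperones, proteasome and translation factors, lie within the range of the others in part for complexes I to IV, and overlap them for DNA replication and the cell cycle.

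Among rises particular to PA HB, the largest without a common-profile probe were in *SLC36A2*, *RPL23A* and *CNTN4*. *SLC36A2*, a proton-coupled transporter of small amino acids, had 3.59, 3.77 and 3.49 in PA HB, -0.43, 2.48 and 1.32 in CT HB and -0.70, -0.44 and -0.37 in IVV HB. PA HB pools were tightly grouped above all others, whereas the CT HB pools spread from the level of IVV HB to well above it. Its rise of 9.89-fold (log2 3.31 ± 0.45, adjusted p = 0.0018) was the largest among particular genes. Against IVV HB the change was 4.12 on the log2 scale and against CT HB 2.49, and the difference of CT HB from IVV HB (1.63, 95% interval 0.48 to 2.78) had an adjusted p of 0.23.

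*NFKBIA*, the inhibitor that holds NF-kappaB in the cytoplasm, stood at 1.03, 2.86 and 2.55 in PA HB, -0.37, -0.16 and -1.06 in CT HB and -0.11, 0.53 and 0.53 in IVV HB (4.77-fold higher, adjusted p = 0.003). *ALDH9A1*, an aldehyde dehydrogenase of carnitine synthesis, rose 4.75-fold, with 0.04, 1.68 and 1.65 in PA HB, -1.55, -1.51 and -2.15 in CT HB and -0.66, -0.44 and -0.43 in IVV HB. *LAPTM4A*, a membrane protein of lysosomes, rose 4.75-fold, with 1.36, 2.71 and 2.43 in PA HB, -0.27, 0.23 and -0.60 in CT HB and -0.81, 1.05 and -0.09 in IVV HB. It ordered the arrays much as the common-profile probes did, at a lower level on each. For these 3 genes and *SNAPC2*, a subunit of the complex that transcribes small nuclear RNAs (4.11-fold), PA HB 1 was well below PA HB 2 and PA HB 3. Leaving out PA HB 2 or IVV HB 1 took all 4 from the particular genes, and their changes against the mean stayed called over all arrays left out (log2 1.90 to 2.82 for *NFKBIA*, 1.97 to 2.79 for *ALDH9A1*, 1.98 to 2.65 for *LAPTM4A* and 1.73 to 2.58 for *SNAPC2*).

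*CNTN4*, a contactin of axon guidance, had 2.17, 2.46 and 2.74 in PA HB, against -0.09, 0.68 and 0.04 in CT HB and -0.63, 0.66 and 0.48 in IVV HB (4.81-fold, adjusted p = 0.0014). The glutamate receptor subunit *GRID1* rose 4.33-fold and *EPB42*, an erythrocyte membrane protein, 4.17-fold. *EPB42* was the most even, with 2.53, 2.54 and 2.65 in PA HB, 0.45 to 0.87 in CT HB and 0.05 to 1.05 in IVV HB. *DYNC2LI1*, a subunit of the dynein of intraflagellar transport, was low against the reference in every group, at -3.96, -3.13 and -2.81 in PA HB, -5.88, -5.10 and -5.80 in CT HB and -6.10, -5.11 and -4.89 in IVV HB, and 4.53-fold higher in PA HB. It belongs to the genes of low ratio described below, many of which were higher in PA HB. *CREB3L2*, a transcription factor anchored in the endoplasmic reticulum, rose 4.46-fold and *ECHDC1*, an enzyme that breaks down ethylmalonyl-CoA, 4.24-fold; after quantile normalization both missed 2-fold (log2 0.98 and 0.76). *SLC36A2*, *RPL23A*, *CNTN4*, *DYNC2LI1*, *CREB3L2*, *GRID1*, *ECHDC1* and *EPB42* met every condition whichever array was left out. In each of these genes CT HB 2 was the highest CT HB array and IVV HB 1 the lowest IVV HB array, as in the common-profile probes. *GRID1* had the order of those probes within every group (1.76, 2.18 and 2.33 in PA HB, -0.16, 0.52 and -0.17 in CT HB, -1.13, 0.70 and 0.08 in IVV HB). The part of that pattern in these rises was not tested.

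A large share of the rises carried the common profile. Of the 348 higher genes, 138 (39.7%) had a common-profile probe, as did 72 of the 196 particular ones and 0 of the 206 lower genes. The largest were *IL12A*, a cytokine subunit, at 2.79, 4.25 and 3.86 in PA HB, 0.48, 1.19 and 0.09 in CT HB and 0.40, 2.48 and 1.08 in IVV HB (6.4-fold), and *ASAP3*, *UBOX5* and *FAM174A*, whose values on every array lay close to those of *IL12A* (6.09 to 6.3-fold). Genes of unrelated function thus had nearly the same values on all 9 arrays. Within the biparental groups the higher genes also moved together: IVV HB 1 was the lowest of the IVV HB arrays for 90.2% of them (41.0% of all genes), and CT HB 2 the highest of the CT HB arrays for 79.9% (35.2% of all genes). Without genes that had a common-profile probe, these shares were 84.3% and 68.1%. That set takes only probes near the pattern in level, so a gene outside it can have a similar shape, as *LAPTM4A* had. For the 206 lower genes, IVV HB 1 was the highest IVV HB array for 68.4% (30.2% of all genes) and CT HB 2 the lowest CT HB array for 70.4% (34.1%). The part of this pattern in the changes of PA HB was not tested.

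Transcripts best known from the oocyte were followed as a list. Of 30 measured oocyte and maternal transcripts 14 rose (4.64% of all genes rose), 0 fell, and all 30 lay above 0, with a median change of 0.98. In pools of whole embryos a larger share of cells with a transcript and more transcript per cell cannot be told apart. Over the list, array medians were -1.50, -1.19 and -1.15 in PA HB, -2.14, -2.06 and -2.21 in CT HB and -2.35, -1.82 and -1.89 in IVV HB. Against IVV HB 9 members rose (median 0.87), and against CT HB 16 (median 1.08). The count was 7 after quantile normalization (median 0.74), 22 after scale normalization (median 1.44) and 8 without PA HB 3.

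*FIGLA*, the transcription factor that turns on zona pellucida genes in oocytes, had 0.69, 0.94 and 0.98 in PA HB, -0.32, -0.41 and -0.80 in CT HB and -1.07, -0.70 and -0.51 in IVV HB. Only PA HB exceeded the reference, by a change of 2.84-fold against the mean of the others (log2 1.51 ± 0.17, adjusted p = 0.0014). *GDF9*, a growth factor that oocytes secrete, stood at -1.47, -0.99 and -0.89 in PA HB, -2.55, -2.13 and -2.84 in CT HB and -2.92, -2.04 and -2.05 in IVV HB (2.48-fold). Zona pellucida glycoproteins form the coat that a hatched embryo has left, and *ZP3* had -3.26, -2.43 and -2.37 in PA HB, against -4.41, -3.92 and -4.40 in CT HB and -4.56, -3.52 and -3.66 in IVV HB (2.62-fold, adjusted p = 0.0051). *ZP2* and *ZP4* rose 2.62-fold and 2.33-fold. *OOEP*, of the subcortical maternal complex, rose 2.94-fold, and *MOS*, the kinase that holds the egg in meiosis, 2.38-fold.

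The oocyte members with the lowest ratios shared their shift with other genes of low ratio. Among 14 oocyte genes with a mean of at most -2 over the 9 arrays, 10 rose (71.4%, median 1.23). Among the 167 other genes at that level, 29 rose (17.4%) and 1 fell, with a median of 0.54 and array medians of -2.51, -2.36 and -1.98 in PA HB, -2.74, -2.69 and -2.67 in CT HB and -2.87, -2.45 and -2.52 in IVV HB. Of the 37 other genes at or below -3, 16 rose (43.2%, median 0.85). The part of signal near background in this shift was not tested.

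**Figure D4:**
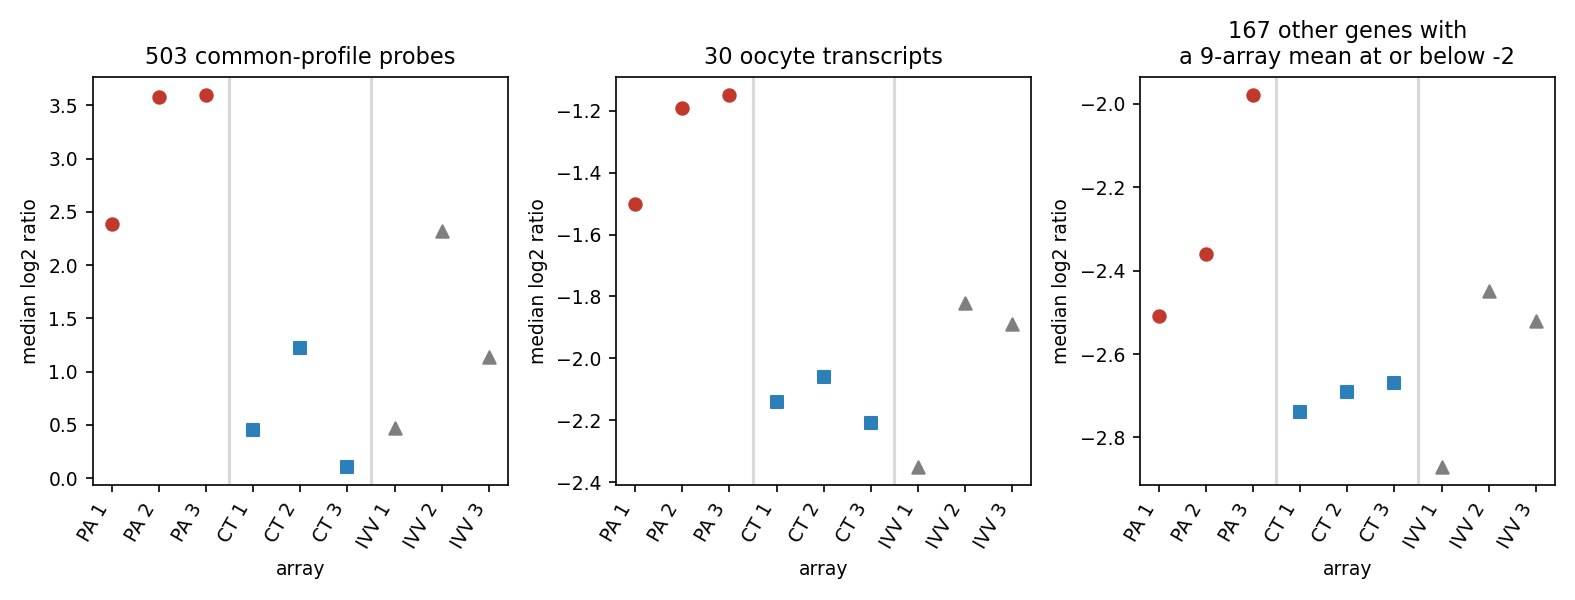
Median log2 ratio (vertical axes, scales differ) on each of the 9 arrays of the 503 common-profile probes, of 30 oocyte transcripts and of 167 other genes with a low mean ratio. PA HB lies highest in the first 2 panels (oocyte medians of -1.50 to -1.15), and PA HB 1, at -2.51, lies within the range of IVV HB in the third.

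Imprinted genes were examined by the parental allele they are read from, beside the 7.38% of all genes that changed. Of 10 measured genes read from the paternal allele, 0 fell, 1 had an unadjusted p under 0.05 for a fall, and no gene had all 3 PA HB arrays below the other 6. Their changes ran from -0.42 to 1.01 with a median of 0.04, and for 9 of the 10 the 95% interval lay above -1, so that a loss of 2-fold or more lay outside it. *MEST* was the exception. It stood at -3.01, -1.11 and -0.89 in PA HB, -1.37, -1.37 and -1.70 in CT HB and -1.10, -1.76 and -0.92 in IVV HB, with 1 low PA HB pool and 2 at the level of IVV HB (log2 -0.30, 95% interval -1.16 to 0.56). The gene with an unadjusted p under 0.05 for a fall was *PLIN2* (log2 -0.42, 95% interval -0.78 to -0.05). Its change was 0.03 against IVV HB and -0.86 against CT HB, so it came from high values in CT HB. *NNAT*, a small membrane proteolipid, had -0.23, 0.22 and 0.51 in PA HB against -0.05 to 0.26 in CT HB and -0.06 to 0.53 in IVV HB. *PLAGL1*, a zinc finger factor that acts on other imprinted genes in the mouse, had a change of 0.36 (95% interval -0.06 to 0.79), and *SGCE*, a sarcoglycan, 0.16 (-0.20 to 0.53). Spot intensities were not used here, so whether these probes had signal above background was not tested. *ZFP64* was the 1 call and went up (log2 1.01, adjusted p = 0.029), with PA HB at 1.61 to 1.75 and IVV HB 3 at 1.64. That call was lost without PA HB 2, PA HB 3, CT HB 1, CT HB 3 or IVV HB 1 (log2 0.77 to 1.18) and after quantile (0.38) or scale (0.53) normalization.

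Among 12 measured genes read from the maternal allele, 1 rose and 0 fell, with a median of 0.15. *TFPI2*, a placental inhibitor of serine proteases, stood at -2.45, -1.80 and -1.33 in PA HB, -3.56, -3.42 and -3.65 in CT HB and -4.18, -3.07 and -3.32 in IVV HB. It was 3.19-fold higher in PA HB (log2 1.67 ± 0.27, adjusted p = 0.003), with the same direction against CT HB (1.68) and IVV HB (1.66). It belongs to the genes of low ratio described above. *SLC22A18*, a transporter, also lay above all other arrays (0.73, 1.16 and 1.05 in PA HB, -0.28 to 0.49 in CT HB, -0.15 to 0.59 in IVV HB), with a change of 0.78 under 2-fold (adjusted p = 0.03). *MEG3*, a noncoding RNA, had 0.18, 0.19 and 0.02 in PA HB, -1.04 to -0.59 in CT HB and -0.39 to 0.19 in IVV HB, and its change of 0.61 (adjusted p = 0.033) came mainly from CT HB (0.90, against 0.32 with IVV HB). *COMMD1*, a regulator of copper and of NF-kappaB, went the other way (-0.71, adjusted p = 0.012), with all PA HB arrays below 0 and all others above. *PPP1R9A* also lay below all other arrays (-0.73, -0.30 and -0.46 in PA HB, -0.10 to 0.15 in CT HB, -0.23 to 0.12 in IVV HB). Its change was -0.48 (adjusted p = 0.05 in limma), under 2-fold. The list thus had 2 genes with all PA HB arrays above the 6 others and 2 with all below (9.22% and 8.62% of all genes). *IGF2R*, *GNAS* and *UBE3A* had changes of 0.39, -0.05 and 0.20, which missed both thresholds. Which parental allele is active has been shown mostly in mouse and human for these genes, and for few of them in pig blastocysts.

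**Figure D5:**
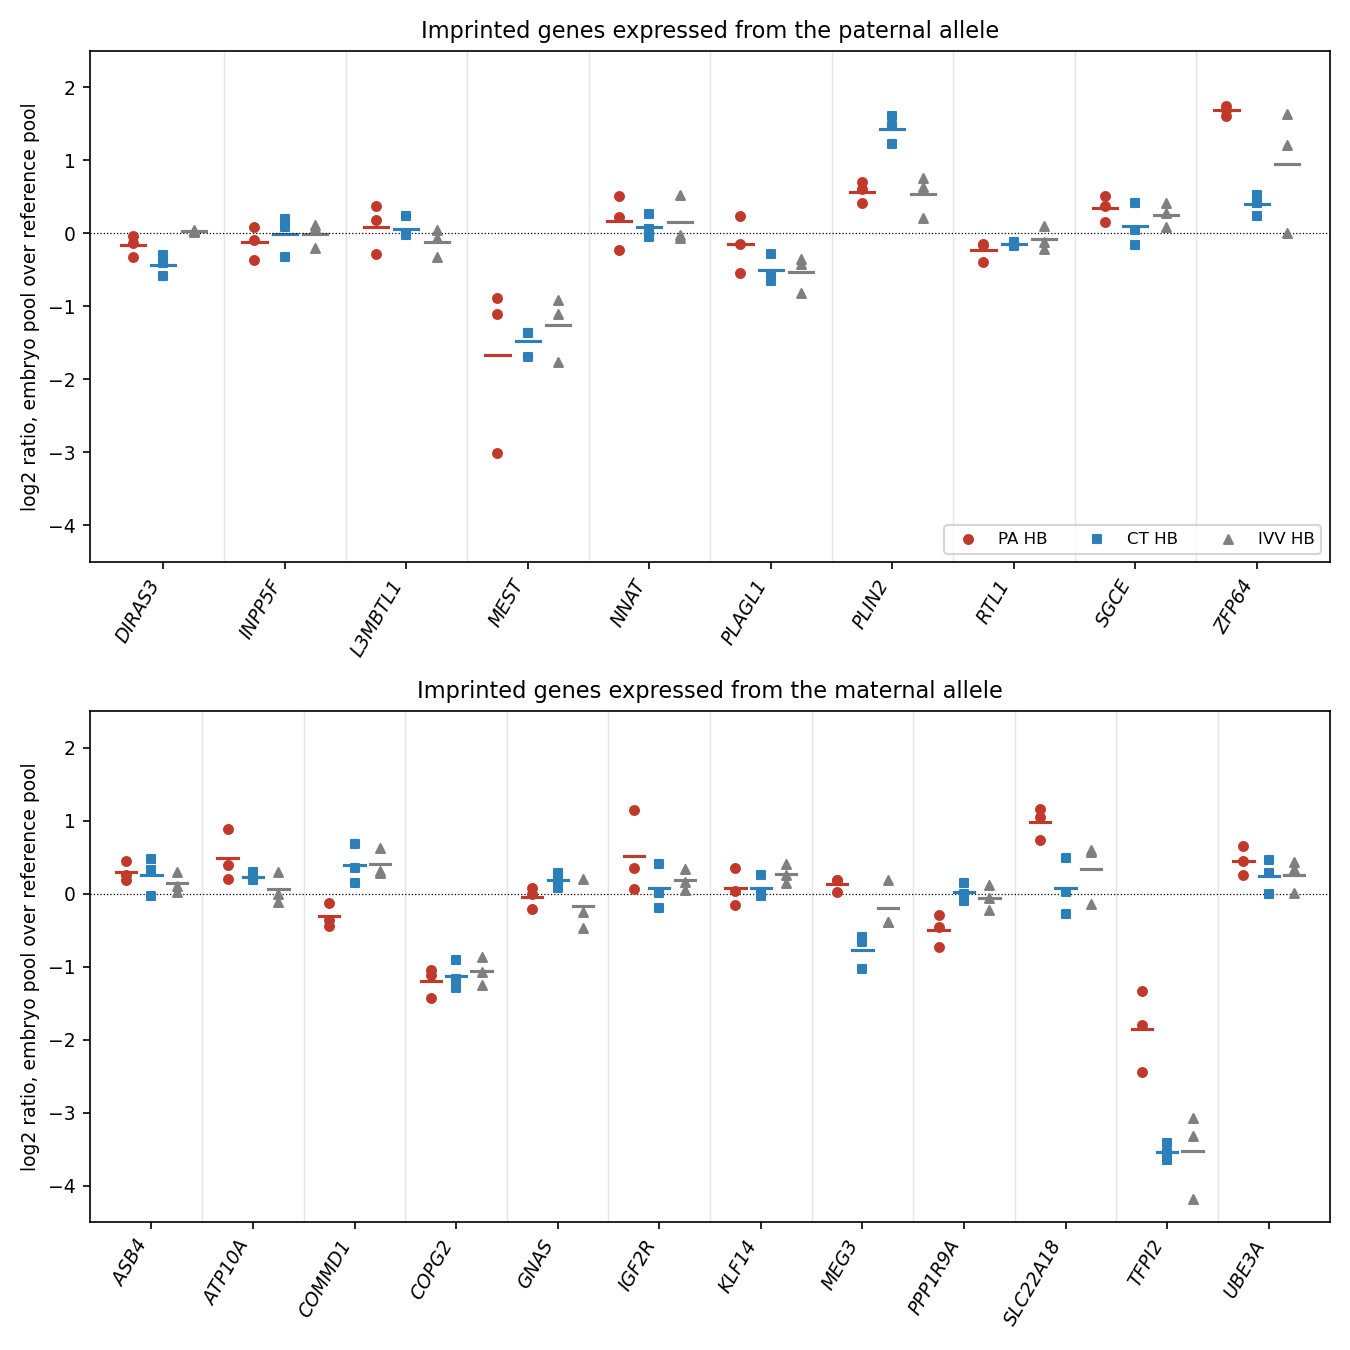
Log2 ratio of embryo pool over reference pool (vertical axis) on each array for 10 imprinted genes expressed from the paternal allele (top) and 12 from the maternal allele (bottom); points are arrays, bars group means of 3. No paternally expressed gene has its 3 PA HB points below the 6 others, and *TFPI2* has its PA HB points at -2.45 to -1.33, above them.

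X-linked genes had no common shift. Of 57 measured, 3 rose and 3 fell (4.64% and 2.74% of all genes), and 28 lay above 0 (median -0.01). *TCEAL8*, a transcription elongation factor A-like protein, had -1.05, -0.72 and -0.54 in PA HB, 1.14, 0.43 and 0.74 in CT HB and 0.75, 0.75 and 0.45 in IVV HB, a fall of 2.79-fold (adjusted p = 0.0014). *MAGED1* rose 2.42-fold, with -0.15, 0.48 and 0.46 in PA HB against -0.43 to -0.88 in CT HB and -1.29 to -1.47 in IVV HB.

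Of 27 trophectoderm genes 2 fell and 0 rose (median 0.08), a share near the 7.38% of all genes that changed. *KRT18*, a keratin of simple epithelia, had -0.20, -0.43 and -0.60 in PA HB, against 0.19, 0.53 and 0.80 in CT HB and 0.49, 0.67 and 0.98 in IVV HB, and fell 2.03-fold (adjusted p = 0.0038). Its 2 probes gave -0.60 and -1.44, and with PA HB 3, CT HB 3 or IVV HB 3 left out, its fall was under 2-fold (log2 -0.92, -0.95 and -0.95). *KRT8*, its partner keratin, moved the other way. It had 1.47, 1.91 and 1.69 in PA HB, 0.70, 1.20 and 1.34 in CT HB and 0.44, 0.20 and 1.15 in IVV HB. Its change of 0.85 (adjusted p = 0.023) was under 2-fold, and 0.14 after quantile normalization. Against IVV HB alone *KRT8* was called higher in limma (log2 1.09, 2.13-fold, adjusted p = 0.02). Against CT HB alone it was not called (log2 0.61, adjusted p = 0.15). The study found *KRT8* lower in PA HB than in IVV HB by quantitative PCR. That direction is opposite to the array values here, and the cause was not tested. *WWTR1*, the Hippo pathway coactivator TAZ, fell 2.26-fold, with a particular call that was lost without PA HB 2, PA HB 3, CT HB 1 or CT HB 3 (log2 -1.41 to -1.02). *CDX2*, a defining transcription factor of this lineage, had -0.12, 0.77 and 0.18 in PA HB, 0.52, 0.11 and 0.20 in CT HB and 0.60, -0.03 and 0.18 in IVV HB, with no difference beyond the spread (0.01 ± 0.21). The values of *GATA2*, another factor of this lineage, overlapped as well (1.94 to 2.20 in PA HB, 1.06 to 2.36 in CT HB, 1.13 to 2.39 in IVV HB; log2 0.34, 95% interval -0.32 to 0.99, and -0.72 after quantile normalization).

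Pluripotency genes had 0 calls in limma among 11 measured, 1 of them with an unadjusted p under 0.05. *POU5F1*, the core factor OCT4, had 0.05, 1.38 and 0.16 in PA HB, 0.55, 0.45 and 0.38 in CT HB and 0.80, 1.17 and 0.88 in IVV HB (log2 -0.18, adjusted p = 0.68). *GATA6*, a factor of the hypoblast, was the single call among 11 genes of that lineage (7.38% of all genes changed). Its 2.19, 2.43 and 2.99 in PA HB lay above 0.86, 1.23 and 0.87 in CT HB and 0.03, 0.89 and 0.53 in IVV HB (3.49-fold, adjusted p = 0.0014), and after quantile normalization the rise was 0.81 on the log2 scale. Other hypoblast genes were not called, and 7 of the 11 lay above 0 (median 0.16). *LAMB1*, a laminin chain, had 0.39 (0.84 against IVV HB alone) and *FOXA2* -0.76, both under 2-fold.

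In the Notch pathway, by which neighbouring cells signal to each other, 1 of 17 measured genes passed, beside 7.38% of all genes. *HEY2*, a repressor that Notch turns on, had 1.22, 1.18 and 1.20 in PA HB, -0.06, 0.01 and -0.20 in CT HB and -0.71, 0.45 and -0.22 in IVV HB, and rose 2.51-fold (log2 1.33 ± 0.21, adjusted p = 0.003). The call held whichever array was left out (log2 1.19 to 1.48). Against IVV HB alone its rise was 1.36. *JAG1*, a Notch ligand, had a change of 0.38 (adjusted p = 0.16), but its 3 probes gave 1.58, -0.30 and -0.13, and after scale normalization the mean rise was called (1.13). *PSEN2* and *NCSTN*, parts of the gamma-secretase that cleaves Notch, had -0.13 and -0.26, and *PSEN2* had -0.40 against IVV HB alone. The 2 probes of *PSEN2* gave 0.20 and -0.46 against the mean. The latter stood at -1.73, -1.81 and -1.36 in PA HB and -1.88 to -1.61 in CT HB, below -0.70 to -0.56 in IVV HB. For the array, the study's text sets PA HB against IVV HB alone. In that comparison, the values here for *HEY2* and *JAG1* (0.56, over probes that disagree) have the opposite sign to that text. So has *GATA2* (0.26, uncalled, and below 0 against the mean after quantile or scale normalization), and the cause was not tested. For *PSEN2* that text gives a rise in PA HB on the array, but elsewhere a fall. By quantitative PCR, the study detected *JAG1* in PA HB and CT HB but not in IVV HB. It detected *HEY2* in none of these groups, and found *GATA2* lower in PA HB than in IVV HB. *KCTD3*, *DPP4* and *LGMN*, which the study also followed singly, had changes of 0.32, -0.41 and 0.10 that missed the threshold. The 3 probes of *KCTD3* gave 1.57 (adjusted p = 0.0014), -0.26 and -0.36. *ANXA8*, *HES1* and *NANOG* were not analysed here.

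Cell cycle genes had 3 rises and 2 falls among 47 (median -0.02), beside 4.64% and 2.74% of all genes. *CDC20*, which activates the anaphase-promoting complex, had 2.08, 2.47 and 1.77 in PA HB, against 0.58 to 0.85 in CT HB and 0.18 to 0.77 in IVV HB, 2.92-fold higher. *CENPF*, a kinetochore protein, rose 2.46-fold and the tumour suppressor *RB1* 2.82-fold, and after quantile normalization none of the 3 rises was called. *CCNH*, the cyclin of the CDK-activating kinase, fell 2.84-fold, with -1.81, -2.41 and -1.37 in PA HB, -0.13 to -0.68 in CT HB and 0.08 to -0.58 in IVV HB; *NUF2*, of the kinetochore, also fell. DNA replication had 0 calls among 24 in limma (median 0.10; an unadjusted p under 0.05 for 3 higher and 5 lower). *GINS1*, a subunit of the replicative helicase, was closest, with -0.53, -0.31 and -0.16 in PA HB, 0.41 to 0.48 in CT HB and 0.59 to 1.16 in IVV HB (1.98-fold lower, adjusted p = 0.003). Among 52 genes of DNA methylation and chromatin, *KAT7*, *KAT5*, *CHAF1A* and *DNMT1* rose and *MBD3* fell. All 4 that rose had a common-profile probe, and without such probes 0 rose and 1 fell.

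Amino acid transport and defence against oxidants had calls both ways, the second with *FTL* and *GPX1* higher and *PRDX1* lower among 28 genes. Of all genes, 4.64% rose and 2.74% fell. Beside *SLC36A2*, the large neutral amino acid transporter *SLC7A8* rose 2.19-fold, *SLC38A9*, the lysosomal arginine sensor, fell 2.29-fold (-1.93, -1.47 and -1.44 in PA HB, -0.41 to -0.59 in CT HB, -0.09 to -0.70 in IVV HB) and *SLC3A1*, a subunit of the cystine transporter, fell 2.64-fold, among 21 measured. *PRDX1*, a peroxiredoxin, had -1.49, -2.16 and -1.62 in PA HB, against -0.29, -0.66 and 0.37 in CT HB and 0.20, 0.08 and -0.94 in IVV HB (2.93-fold lower, adjusted p = 0.0045). *GPX1*, a glutathione peroxidase, rose 2.31-fold, with 1.37, 0.63 and 1.18 in PA HB, -0.29, 0.38 and -0.38 in CT HB and -0.96, 0.12 and 0.25 in IVV HB. Without PA HB 3 the call of *GPX1* was lost (highest adjusted p of 0.053, log2 1.02 to 1.43), as it was after quantile and scale normalization.

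Some changes of PA HB were shared with the cultured CT HB and are not particular to parthenotes. *AIF1*, a calcium-binding protein of macrophages that is also called IBA1, had 4.25, 5.18 and 4.32 in PA HB, 4.93, 5.35 and 5.24 in CT HB, and 0.15, 0.45 and -0.03 in IVV HB. Both cultured groups lay far above IVV HB and did not differ beyond their spread (-0.59, adjusted p = 0.15), so that the change against the mean (1.90) averages 4.40 against IVV HB and -0.59 against CT HB. In a list of 11 leukocyte and macrophage genes 3 rose against the mean (4.64% of all genes rose). They were *AIF1*, *P2RX4* (below) and *CXCR4*. The only probe of *CXCR4* was a common-profile probe, and *CXCR4* was not higher in CT HB than in IVV HB (log2 -0.69). Leukocyte markers (*CD3E*, *CSF1R* and *PTPRC* measured) had 0 calls in limma and 0 with an unadjusted p under 0.05. *FTL*, the ferritin light chain that stores iron, was graded, with 0.53, 0.53 and 0.58 in PA HB, -0.49, -0.49 and -0.31 in CT HB and -2.23, -1.89 and -1.61 in IVV HB. *P2RX4*, an ATP-gated channel (1.04 to 1.35 in PA HB, 0.56 to 0.69 in CT HB and -1.26 to -0.54 in IVV HB), and *TRAPPC5*, of vesicle tethering, were likewise high in both cultured groups.

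*ECHDC1* was the 1 particular gene that also changed between CT HB and IVV HB, with 3.60, 3.30 and 3.69 in PA HB, 2.04, 2.57 and 2.13 in CT HB and 0.03, 0.98 and 0.91 in IVV HB. *SLC3A1* was low in both cultured groups (-0.82, -1.61 and -2.09 in PA HB and -1.06, -1.02 and -0.57 in CT HB, against 0.83, 0.60 and 0.57 in IVV HB). *ARG1*, arginase of the urea cycle, set CT HB apart instead, at -0.45, 0.26 and 0.01 in PA HB, 2.08, 1.25 and 2.00 in CT HB and 0.80, 0.14 and 0.14 in IVV HB, and its call against the mean was lost without PA HB 1 (log2 -1.29 to -0.93 over the arrays left out). Of the 43 genes higher in CT HB than in IVV HB, 6 were higher and 1 lower in PA HB against the mean (4.64% and 2.74% of all genes). That mean contains CT HB, so a change shared by both cultured groups is reduced in it. Against IVV HB alone, 18 of the 43 were higher in PA HB (4.34% of all genes). Against CT HB alone, 1 was higher and 9 were lower (4.84% and 2.93%). Each of these comparisons shares arrays with that of CT HB and IVV HB, which can by itself make calls coincide.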

How the data were processed

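The arrays were 2-colour EMPV1 porcine embryo arrays, with amplified RNA of embryo pools in Cy5 and of a reference pool in Cy3, without dye swaps. The authors subtracted background, normalized each array by global loess and deposited 1 value per probe, read here as log2 ratios of embryo over reference. Log base and direction are not written beside the values; they were inferred from the dyes and from oocyte transcripts, which lay below 0. No scaling between arrays was stated, and 3 pools a group limit the precision.

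Of 23971 probes, 10344 (43.2%) had a gene symbol in the platform annotation and 13627 had none and were not analysed here. An accession was given for 2748 named probes and 1567 of these matched the RefSeq annotation (Sscrofa11.1), which served for names only; 87 were renamed, and 11 symbols were kept on conflict. Probes of a gene were averaged, giving 7506 genes, 5700 with 1 probe and 1806 with up to 10.

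A linear model with 1 mean per group over the 9 arrays was fitted in limma 3.58.1 (R 4.3.3; 6 residual and 5.47 prior degrees of freedom, prior SD 0.253). P-values were two-sided and adjusted over all genes of a contrast; ± is the SE of a contrast, and intervals are 95% limits. The script was tested on simulated data. Common-profile probes had r of at least 0.95 with the pattern and a root mean square distance of at most 0.75.

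Named genes were the 12 largest falls, 12 rises without and 4 with a common-profile probe among particular genes (without LOC and open-reading-frame names), up to 4 of smallest adjusted p per list, measured imprinted genes, changed genes that also differed between CT HB and IVV HB (up to 5 each way), and genes the study followed singly. *ZP2*, *ZP3*, *ZP4*, *OOEP*, *GDF9*, *MOS*, *DNMT1*, *SDHB*, *NDUFS1*, *ATP5A1*, *TIMM8A*, *CCT4*, *NUF2*, *MBD3*, *CDX2*, *POU5F1*, *COL1A1* and *VIM* were added after their values were seen. The groups compared, gene lists and this rule were chosen with earlier results of these data known. Alternatives were other normalizations, probe summaries, weights, thresholds, a replicate block and each array left out in turn.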

Additional observations from a re-analysis of the deposited data

Results flagged for a closer look

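In 13 of 186 named genes CT HB differed from IVV HB in limma, so the change of PA HB depended on the biparental group it was set against. Of all genes, 0.653% differed in that contrast. *AIF1*, *FTL*, *ECHDC1*, *P2RX4*, *TRAPPC5*, *SLC3A1* and *ARG1* were named in part because they passed it. For them this outcome was fixed by the choice and adds no support. *AIF1* had 4.98 (log2) in CT HB against IVV HB (adjusted p = 2.6e-06), beside 4.40 in PA HB against IVV HB. The inositol phosphatase gene *INPP5D* had 2.41 (adjusted p = 0.0033), beside 2.13 in PA HB, and the lysosomal protease *CTSH* had 1.88 (0.0063), beside 1.88. In *PERP*, a p53 target of desmosomes, CT HB lay 1.66 above IVV HB (0.0033) and PA HB 1.49. *TRAPPC5* had 1.71 (0.026), beside 2.08 in PA HB, *P2RX4* had 1.46 (0.0061), beside 2.02, and the autophagy kinase *ULK1* 1.08 (0.036), beside 1.34. For these 7 genes PA HB and CT HB differed by -0.59 to 0.56.

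*FTL* and *ECHDC1* were graded, with 1.48 (0.0033) and 1.61 (0.019) in CT HB against IVV HB and a further 0.98 and 1.28 in PA HB against CT HB. *SLC3A1* was lower in CT HB by -1.55 (0.036) and in PA HB by -2.17. In 3 genes CT HB stood apart from both other groups: *ANXA2*, a membrane-binding annexin, had 1.70 (0.0044) in CT HB and 0.32 in PA HB against IVV HB, *ARG1* had 1.42 (0.044) and -0.42, and *GABARAPL2*, of the autophagosome, had 1.09 (0.042) and 0.09. PA HB lay below CT HB in these by -1.38, -1.84 and -1.0.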

How the results depend on the processing

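The 7506 genes are those with a symbol, 3 pools a group are few, and without intensities probes near background could not be set aside. Changes against the mean (554 in the comparison as reported) numbered 339 after quantile normalization (137 higher, 202 lower), 926 in a fit per probe and 1216 at 1.5-fold, and 440 to 737 with 1 array left out. Particular genes (312) numbered 130, 530 and 564 under these settings and 104 at an adjusted p of 0.01, with 152 to 528 when 1 array was left out. In PA HB against IVV HB (580) the counts were 337, 986, 1021 and 267, and 276 to 757 with an array left out. In PA HB against CT HB (583) they were 384, 925, 1050 and 335, and 326 to 790. CT HB against IVV HB (49) gave 123 after quantile and 108 after scale normalization, 85 per probe, 76 without the least variable 25% of genes, 115 with array weights and 19 at 0.01, and 20 to 73 with an array left out. The causes were not tested; a fit per probe counts more features, and the 2 thresholds differ by construction. Higher genes made up 80.2% of the particular ones after scale normalization, 51.9% without common-profile probes and 47.9% without PA HB 3.

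The groups share replicate numbers in their labels. Deviations of same-numbered arrays correlated at -0.0722, 0.207 and 0.253 for number 1, 0.0998, 0.115 and 0.313 for number 2, and -0.151, 0.0286 and -0.0137 for number 3. Arrays of unlike number were not correlated in this way, so whether equal numbers share more than a number was not tested. With the replicate number as a block, the counts were 564, 323, 618, 615 and 56. Of 94 named genes that passed, 76 did so with every array left out, 25 missed after quantile and 26 after scale normalization, and 0 reversed.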

Other observations

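For further processes the counts in PA HB against the mean of the biparental groups (limma) were small, as they can be in lists of this size where 7.38% of all genes changed. Genes of apoptosis had 0 calls among 19 (median -0.22; 6 lower and 0 higher at an unadjusted p under 0.05), and the proapoptotic *BAX* had -0.60, -0.24 and -0.39 in PA HB, 0.13, 0.23 and -0.06 in CT HB and 0.06, 0.04 and -0.09 in IVV HB, a change of -0.46 (adjusted p = 0.043) under 2-fold. Among 23 targets of p53, *RRM2B*, a ribonucleotide reductase subunit, rose 2.15-fold and the others were not called. Without IVV HB 1 its change was 0.95 on the log2 scale. *CCNG1*, a cyclin that p53 induces, set CT HB apart, with -0.05, -1.03 and -0.63 in PA HB, 0.92, 0.40 and 1.03 in CT HB and -0.06, -0.26 and -0.67 in IVV HB. Lysosomal genes (25), autophagy (17) and cholesterol synthesis (11) had 0 calls, with medians of -0.19, 0.09 and -0.15. At an unadjusted p under 0.05 these lists had 5, 2 and 1 higher and 4, 3 and 3 lower genes. *NPC2*, a carrier of cholesterol in lysosomes, was 2.36 to 2.78 in CT HB, against 1.04 to 1.57 in PA HB and 1.43 to 1.67 in IVV HB.

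Among annexins and S100 proteins, *S100A11* was high in both cultured groups (2.95, 3.23 and 2.78 in PA HB and 1.46, 2.91 and 2.92 in CT HB, against -1.66, 0.89 and 0.26 in IVV HB), and its call against the mean was lost without PA HB 2 or PA HB 3 (log2 1.49 to 2.12). Of 5 measured fibroblast markers 1 rose, *VIM*, an intermediate filament gene that is not limited to fibroblasts, at -3.19, -3.17 and -2.52 in PA HB, -4.19, -4.02 and -3.69 in CT HB and -4.83, -3.89 and -3.79 in IVV HB (2.16-fold); *COL1A1* was within -0.09 and 0.11 on all 9 arrays. *VIM* belongs to the genes of low ratio described above. The fibroblast marker list had 0 calls in limma without PA HB 3, without IVV HB 1 and after quantile normalization. Cumulus cell markers had 0 calls among 7, with 2 higher at an unadjusted p under 0.05. Of 25 microRNA genes with a named probe, counted after the values were seen, 0 changed in limma, 5 had an unadjusted p under 0.05, and the median was 0.09. On the array, the study found rises of the precursors *MIR149*, *MIR192*, *MIR505* and *MIR1343* when parthenotes were set against *in vivo* embryos. None of these 4 was among the genes measured here, so the count does not bear on them.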
